A study of Drosophila melanogaster with 2 samples.

Results

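The regions described here are the peaks of the tagged CG10979 protein whose summits lay upstream of a protein-coding gene start, with no protein-coding start of the opposite strand nearby. They were chosen by position: a peak of the authors' thresholded list was kept where every annotated protein-coding start within 500 bp of its summit lay on the same strand and the summit was upstream of the nearest of them. The rule kept 1453 of 7630 peaks (19.0%). The remainder comprised 983 divergent peaks with starts of both strands in reach, 419 peaks at or downstream of the nearest start of a single strand, and 4775 peaks with no protein-coding start within 500 bp.

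The data come from chromatin immunoprecipitation and sequencing (ChIP-seq) of transgenic Drosophila melanogaster embryos of mixed sex, aged 0 to 14 h, that express CG10979 fused to enhanced green fluorescent protein. The fusion was pulled down through its fluorescent tag from chromatin sonicated to 200 to 800 bp. There is 1 group of 2 biological replicates, numbered 2 and 3, both with the tag and both from whole embryos, so that cell types within the embryo cannot be told apart, and no second condition. The thresholded list holds peaks that passed the authors' limit on the irreproducible discovery rate (IDR), and it consists of the 7630 strongest of 30000 pooled peaks. The signal value of a peak is the authors' own score, with no unit and no read count behind it in the lists, so the depth is unknown. Values per replicate below come from each replicate's own 7630 strongest peaks, with exceptions. Values of single peaks are those of the counterpart within 100 bp in the replicate's full list. Ratios, correlations and counts that set the replicates against each other use IDR peaks with such a counterpart in both full lists. Peaks are not replicates, and an exact sign permutation over 2 replicates cannot give a two-sided p below 0.5, so no test was run and differences are set against the spread of the 2 replicates (SD, n = 2); 95% Wilson intervals cover the number of peaks or genes only.

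A gene start is where RNA polymerase II begins transcription. The core promoter immediately around it binds the general machinery, and in flies it comes in broad types: genes used in every cell often carry the DNA replication-related element (DRE), Ohler motifs 1 and 7 or an E-box, whereas genes switched on in particular cells more often carry a TATA box or an initiator. Further upstream lies proximal regulatory DNA, where sequence-specific factors bind and nucleosomes are often depleted. Insulator proteins such as CTCF and BEAF-32 also bind near fly gene starts and are known for separating neighbouring regulatory domains.

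The windows below show the kinds of sequence found at the summits. Each is 101 bases long, centred on a summit, read 5′ to 3′ along the strand of the gene, on build dm6, from the RefSeq sequence of that assembly. None of the printed windows touches an annotated exon. The first 2 belong to the strongest such peaks, both within 100 bp of the start, and CG18549 stands for the strong AT-rich peaks farther upstream; capitals mark runs of at least 8 A or T in CG14100, the AGGTGGC word on its reverse strand in Mtpalpha and TATAAA in CG18549.
CG14100, chr3L:19590573-19590673, minus strand, summit 99 bp upstream: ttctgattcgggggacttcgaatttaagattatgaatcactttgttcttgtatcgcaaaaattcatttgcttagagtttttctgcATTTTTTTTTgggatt
Mtpalpha, chr2L:9576798-9576898, minus strand, summit 79 bp upstream: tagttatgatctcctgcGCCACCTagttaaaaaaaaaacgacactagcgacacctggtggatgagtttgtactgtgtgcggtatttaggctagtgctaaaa
CG18549, chr3R:12449120-12449220, plus strand, summit 126 bp upstream: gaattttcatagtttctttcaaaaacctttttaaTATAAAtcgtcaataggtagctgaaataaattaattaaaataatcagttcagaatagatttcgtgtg

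The next windows hold core promoter motifs at peaks within 100 bp of the start. Capitals mark the DRE TATCGATA in RpS12, Ohler motif 7 (CATCNCTA) in CG12118, the E-box CAGCTG in CG6345 and Ohler motif 1 (GGTCACACT) in EndoA. Each is the strongest nearer peak with a printable window that holds its motif, and these examples were chosen after the values were seen.
RpS12, chr3L:13023246-13023346, plus strand, summit 56 bp upstream: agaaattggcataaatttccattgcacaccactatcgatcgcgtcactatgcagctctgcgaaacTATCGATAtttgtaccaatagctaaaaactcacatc
CG12118, chrX:9196448-9196548, minus strand, summit 84 bp upstream: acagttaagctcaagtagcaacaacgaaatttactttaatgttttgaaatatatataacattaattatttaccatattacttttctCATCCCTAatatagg
CG6345, chr3R:10416082-10416182, minus strand, summit 86 bp upstream: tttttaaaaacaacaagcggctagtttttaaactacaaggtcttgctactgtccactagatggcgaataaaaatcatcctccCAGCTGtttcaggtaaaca
EndoA, chr3R:18906500-18906600, plus strand, summit 59 bp upstream: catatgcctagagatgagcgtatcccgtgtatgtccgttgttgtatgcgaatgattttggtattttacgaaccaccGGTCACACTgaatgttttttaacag

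A last pair holds repeated words of the insulator type, shown because these peaks were stronger in replicate 3. Capitals mark 2 copies of GGCGCC in Tpst, each of which runs on into the CTCF-type word AGGTGGC on the reverse strand, and 2 copies of AGATGGC on the reverse strand in CG13689.
Tpst, chrX:13563528-13563628, plus strand, summit 245 bp upstream: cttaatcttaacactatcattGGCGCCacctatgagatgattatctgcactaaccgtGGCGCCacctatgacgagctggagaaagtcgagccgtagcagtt
CG13689, chr2L:602454-602554, plus strand, summit 309 bp upstream: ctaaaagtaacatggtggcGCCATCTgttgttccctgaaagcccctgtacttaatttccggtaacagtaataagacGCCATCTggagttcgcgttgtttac

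Peaks on the upstream side were on the IDR list more often than those on the downstream side. Of the pooled peaks in the upstream class, 1453 of 4073 were on the IDR list (35.7%, Wilson interval 34.2 to 37.2%), against 12.9% of the downstream peaks (419 of 3250, interval 11.8 to 14.1%) and 25.4% of all pooled peaks. Divergent peaks had the highest share of the classes, 41.5% (983 of 2367, interval 39.6 to 43.5%). The median IDR summit in the upstream class lay 184 bp before the start, with 187 bp in replicate 2 and 182 bp in replicate 3. Within 100 bp of the start lay 359 summits (24.7%), and 1094 lay 101 to 500 bp away. Both values follow the 500 bp window of the rule: the median was 110 bp and the share 44.5% with starts within 200 bp, and 243 bp and 19.3% with starts within 1000 bp. These 2 groups are called the nearer and the farther peaks below; the 100 bp limit was set for describing distance, and its use as a divide was chosen with the values in view. At the edges of the rule, CycE (499 bp, signal value 1804) and Cyp310a1 (498 bp, 1081) were just inside, and CG3630 (501 bp, 399.3) and prage (501 bp, 1503) just outside. At the start itself, Lac (285.3) and Ccz1 (237.4), each 1 bp upstream, were kept, and RpL27A (369.5) and CG11444 (246.9), with the summit on the first base, were not.

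**Figure D1:**
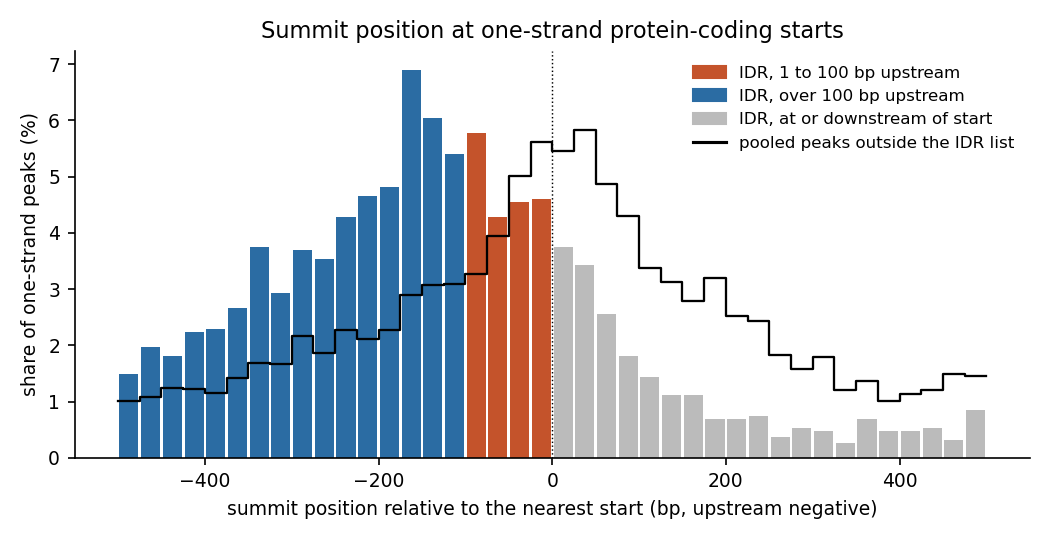
Share of peaks at starts of a single strand by the position of the summit relative to the nearest start, in bins of 25 bp, for the IDR list (bars) and for the pooled peaks outside it (black line). IDR summits lean to the upstream side, with 1453 upstream against 419 downstream, while the weaker pooled peaks are about as frequent on the downstream side.

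The strongest upstream peaks belonged to genes of varied function. The peak at px, a gene of wing vein patterning, reached 5710 in replicate 2 and 4196 in replicate 3, with 9874 in the pool, with its summit 207 bp upstream. Ugalt, a transporter of UDP-galactose, had 4253 in replicate 2 and 3172 in replicate 3 with the summit only 36 bp upstream. ph-p, which encodes a subunit of the Polycomb repressive complex PRC1, had 3805 and 2839 in replicates 2 and 3 and lay 460 bp upstream. All 3 were stronger in replicate 2, as was usual on these lists. The RNA-binding protein gene msi (2918 in replicate 2, 2197 in replicate 3), the casein kinase gene gish (2655 and 2129), the glycosyltransferase gene C1GalTA (2468 and 2072), the phosphoserine phosphatase gene aay (2495 and 1928) and the transporter gene E23 (2499 and 1843) were farther peaks, 160 to 262 bp upstream. Fkbp14, mRpL41, CG13921, CG1888, Tina-1, brwl, CG18549 and CG1635 also carried farther peaks among the 20 strongest. Only Ugalt, CG14100, Mtpalpha and MFS18 of these 20 were nearer peaks, and Tpst, a sulfotransferase gene, completes the list. The summits at px, ph-p, gish, Fkbp14 and CG1888 lay inside the gene itself, before an internal start, and that at aay lay inside another gene. Of the 763 strongest IDR peaks, 223 were upstream peaks, 15.3% of the upstream class, and 540 were among the other IDR peaks (8.74%).

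The upstream class as a whole was not much stronger than the other IDR peaks. Its median signal value was 384.7 (quartiles 252.1 and 877.3), against 371.2 for all other IDR peaks and 382.4 for divergent peaks. In the replicates' own lists the log2 difference from all other peaks was 0.08 in both, and it was −0.17 on the IDR list with starts within 200 bp only. Downstream peaks were weaker. Upstream peaks had medians of 215.9 in replicate 2 and 184.2 in replicate 3, against 142.7 and 127.4 for downstream peaks, a log2 difference of 0.56 ± 0.047 (SD, n = 2). The number of downstream peaks itself varied between the lists, with 341 in replicate 2 and 555 in replicate 3, while upstream peaks numbered 1442 in replicate 2 and 1463 in replicate 3. A counterpart within 100 bp in both relaxed replicate lists existed for 96.1% of upstream peaks (96.3% of all IDR peaks), and 79.5% had one among the strongest peaks of both replicates (80.3% of all IDR peaks). These shares were near the background.

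Signal and distance went together. Nearer peaks had median signal values of 148.1 in replicate 2 and 134.9 in replicate 3, against 261.9 and 220.7 for farther peaks, and the nearer medians were below the farther ones in both replicates. The log2 difference, nearer minus farther, was −0.77 ± 0.080 (SD, n = 2), larger than the spread of the replicates. In the IDR list the medians were 273.6 for nearer and 471.6 for farther peaks. In steps of distance, the median was 256.8 at 1 to 50 bp, 291.6 at 51 to 100 bp, 393.8 at 101 to 150 bp, 500.2 at 151 to 200 bp and 594.6 at 201 to 300 bp, and it was lower again at 301 to 400 bp (439.6) and 401 to 500 bp (422.2). Both replicates had their highest median at 201 to 300 bp. Among nearer peaks 17 (4.74%) were among the 763 strongest IDR peaks, against 206 farther peaks (18.8%). The IDR list holds the strongest pooled peaks, so the share on it by position is the same signal value cut at a limit. Of pooled upstream peaks, 22.8% at 1 to 50 bp were on the IDR list, 32.4% at 51 to 100 bp, 43.7% at 151 to 200 bp and 36.2% at 401 to 500 bp, where 25.4% of all pooled peaks were.

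**Figure D2:**
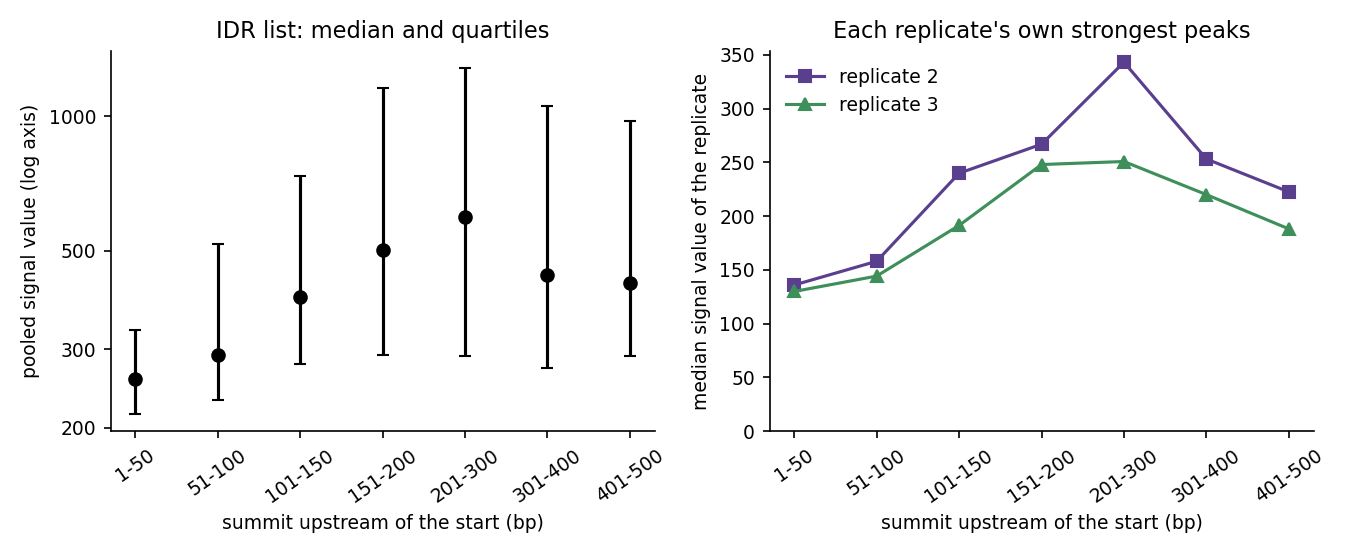
Signal value of upstream peaks by distance of the summit from the start, as the median and quartiles over the IDR list on a log axis (left) and as the median over each replicate's own strongest peaks (right). The median climbs to 594.6 at 201 to 300 bp on the IDR list, and both replicates have their highest median in that bin.

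Base composition moved with distance as well. In the 101 bp around the summit the GC content was 40.9% for nearer and 30.6% for farther peaks, where replicate 2 gave 40.8% and 30.2% and replicate 3 gave 42.2% and 31.4%. On the IDR list it was 31.3% for divergent peaks, 41.3% for downstream peaks and 31.5% for all peaks outside the upstream class. Low GC content was thus not particular to the farther peaks. By distance the GC content of upstream peaks was 44.7% at 1 to 50 bp, 37.4% at 51 to 100 bp, 32.3% at 101 to 150 bp, 30.1% at 151 to 200 bp and 29.5% at 201 to 300 bp. Windows at the same distances from all 19253 annotated protein-coding start positions had 43.3%, 40.4%, 37.8%, 37.3% and 38.1%, so that the summits of the first bin were close to the average start and those beyond 50 bp were poorer in GC. Runs of at least 15 A or T were present in 11.7% of nearer and 27.1% of farther windows, and in 15.4% of windows 184 bp upstream of all starts. The weaker upstream peaks outside the IDR list did not share the low GC content: their means were 46.2% at 1 to 50 bp and 38.8% at 201 to 300 bp.

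Where the AT-rich stretch lay relative to the summit differed by distance. Farther summits sat in it: their GC content was lower than the mean of windows 300 bp to either side by 12.9 points (−12.9 ± 0.952 in the replicates, SD, n = 2). Other classes of the IDR list had such a dip too, −15.6 points for divergent peaks and −14.3 for peaks with no protein-coding start. Downstream peaks had −0.49 points. At nearer summits the same difference was −0.77 points on the IDR list and 0.264 ± 0.510 points in the replicates. Centred on the gene start, the promoters of nearer peaks had their lowest GC content, 31.9%, at 151 to 200 bp upstream, outside the summit window, where all starts had 37.2%, and the promoters of farther peaks had 34.2% at 201 to 250 bp. Over the whole class the flank on the upstream side had 39.0% GC and that on the gene side 47.0%, with a difference of −8.11 ± 0.202 points in the replicates (SD, n = 2). Downstream peaks had −6.78 points, weaker upstream peaks outside the IDR list −6.72 and divergent peaks −5.05. All protein-coding starts had 38.3% GC at 250 to 300 bp upstream and 46.5% at 250 to 300 bp downstream. The flank difference was thus not particular to the upstream class.

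**Figure D3:**
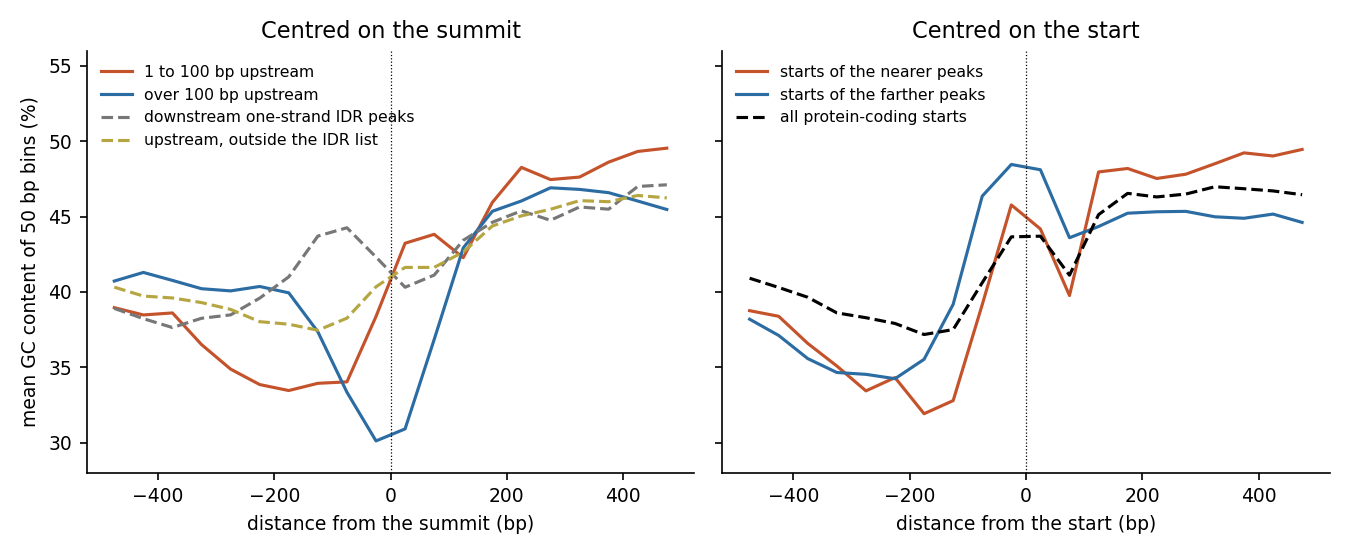
Mean GC content in bins of 50 bp around summits (left) and around gene starts in the direction of transcription (right), for nearer and farther upstream peaks and their comparison sets. Farther summits lie at the lowest point of the profile, whereas nearer summits lie on its rising side, with the low stretch upstream of them.

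Farther peaks had the higher median signal value on either side of 30% GC at the summit. Below 30% GC the median was 467.9 for nearer (n = 63) and 585.2 for farther peaks (n = 604). At or above 30% GC it was 260.8 for nearer (n = 296) and 358.3 for farther peaks (n = 490). This division was chosen after seeing the data, and it does not hold GC content equal: at or above 30% the mean was 44.2% for nearer and 38.3% for farther peaks. Across the 1453 peaks Spearman's rho with the signal value was −0.37 for GC content and 0.24 for distance, and among the farther peaks alone it was −0.27 for GC content and 0.0088 for distance, so that distance beyond 100 bp had almost no rank relation to the signal value. These correlations describe peaks that share libraries and depth.

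Motifs of broadly used core promoters were found mainly at the nearer peaks. At least 1 of DRE, Ohler motif 1, Ohler motif 7 and the E-box, searched on both strands, was present in 86 of 359 nearer windows (24.0%, Wilson interval 19.8 to 28.6%), with 22.3% in replicate 2 and 25.9% in replicate 3. Of the farther windows, 53 of 1094 held 1 (4.84%, interval 3.72 to 6.28%), with 3.32% in replicate 2 and 4.87% in replicate 3. Windows at the same median distances from all starts held 15.3% (52 bp upstream) and 8.06% (236 bp upstream), so that the nearer share was above and the farther share below that of the average promoter. Among the 3815 strongest IDR peaks the nearer share was 12.1%, below the 15.3% of all starts. The weaker upstream peaks outside the IDR list had 25.5% within 100 bp and 7.16% farther away, close to the IDR peaks within 100 bp. Holding such a motif went with a lower signal value within each group: the median was 251.4 with and 284.9 without it among nearer peaks, and 288.8 with and 481.6 without it among farther peaks.

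The single motifs followed the same division. DRE (TATCGATA), the site of the factor DREF, was in 7.24% of nearer and 0.640% of farther windows, against 5.13% and 1.60% of all promoters. The E-box CAGCTG was in 10.6% and 2.29%, against 7.51% and 4.76% of all promoters. Ohler motif 7 (CATCNCTA) had the largest ratio to all promoters of the 4 among nearer peaks, with 6.96% of nearer and 1.74% of farther windows against 2.26% and 1.35%. The replicates gave 5.79% and 6.42% of nearer windows for it, and weaker peaks within 100 bp had 3.50%. It also had an orientation: over all upstream peaks 32 windows held it along the gene's strand and 12 on the other strand. Ohler motif 1 (GGTCACACT), the site of M1BP, was in 2.79% of nearer and 0.366% of farther windows, against 1.89% and 0.800% of all promoters. The replicates differed on it, with 1.83% of nearer windows in replicate 2 and 4.28% in replicate 3. CGATA, the BEAF-32 word, which is contained in the DRE, was in 37.3% of nearer and 11.6% of farther windows, against 25.9% and 15.2% of all promoters. Weaker peaks within 100 bp held the DRE in 9.98%, Ohler motif 1 in 4.94%, the E-box in 10.1% and CGATA in 33.4%. For the DRE and Ohler motif 1 these shares were above those of the nearer IDR peaks. In nearer peaks the DRE lay at a median of 37 bp and Ohler motif 7 at a median of 23 bp before the start. The median summit of all 359 nearer peaks, with or without the motif, lay at 52 bp. The search reached only 50 bp to either side of summits within 100 bp of the start, which bounds these positions.

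AT-rich motifs showed the reverse. The word TATAAA, the letters of the TATA box, was in 13.9% of nearer and 28.9% of farther windows, against 18.4% and 17.3% of all promoters. The farther share was not particular to upstream peaks. TATAAA was in 28.3% of divergent peaks, 12.2% of downstream peaks and 26.4% of all IDR peaks outside the upstream class. The matches of TATAAA lay at a median position of −206 bp from the start, far from where a TATA box acts. That position was set by the search around the summits: of 366 windows with the word, 316 belonged to farther peaks. It therefore does not tell whether the word serves as a TATA box. Along the gene's strand 218 windows held TATAAA, and 216 held it on the other strand. The word ATATTA, picked from earlier results of these data, was in 16.2% and 25.7%, against 9.17% and 14.3% of all promoters, and its 16.2% among nearer peaks compares with 6.79% among weaker peaks within 100 bp. ATATTA was in 26.1% of divergent peaks, 10.3% of downstream peaks and 24.1% of all IDR peaks outside the upstream class. The homeobox core TAATTA was in 5.01% of nearer and 10.8% of farther windows, against 5.31% and 8.23% of all promoters. The GATA word AGATAA was in 4.18% and 8.78%, against 6.51% and 6.99% of all promoters. Both were more frequent at the farther peaks too, but IDR peaks outside the upstream class held them at 12.0% and 9.47%. The GAGA word GAGAG was below all promoters in each group, with 9.47% against 15.5% for nearer and 9.32% against 11.5% for farther peaks. The initiator TCAGT was in 17.3% of nearer and 15.1% of farther windows, against 20.7% and 15.8% of all promoters. Of the remaining words, AAATAT was in 27.3% and 41.4% of windows, against 19.9% and 24.8% of all promoters. AAAAAAAA was in 4.74% and 7.77%, against 4.99% and 5.99%. TGCATA, a part of the Su(Hw) site, was in 6.13% and 8.87%, against 4.52% and 6.27%, and in 8.58% of IDR peaks outside the upstream class. GTATATTT was in 1.95% and 2.19%, against 2.00% and 1.69%, and AGGATA in 2.79% and 2.93%, against 1.89% and 2.86%. The GC-rich words ACCGCG (3.34% nearer, 0.823% farther), GCGCCA (7.52% and 3.29%) and GGCGCC (1.95% and 2.01%) were all uncommon. Of all promoters, 2.23% and 1.27% held ACCGCG, 5.46% and 3.74% held GCGCCA and 1.91% and 1.32% held GGCGCC. The Zelda site CAGGTAG was present in 1 nearer and 4 farther windows. Matches of short AT-rich words follow base composition, and the part of GC content in these shares was not tested.

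**Figure D4:**
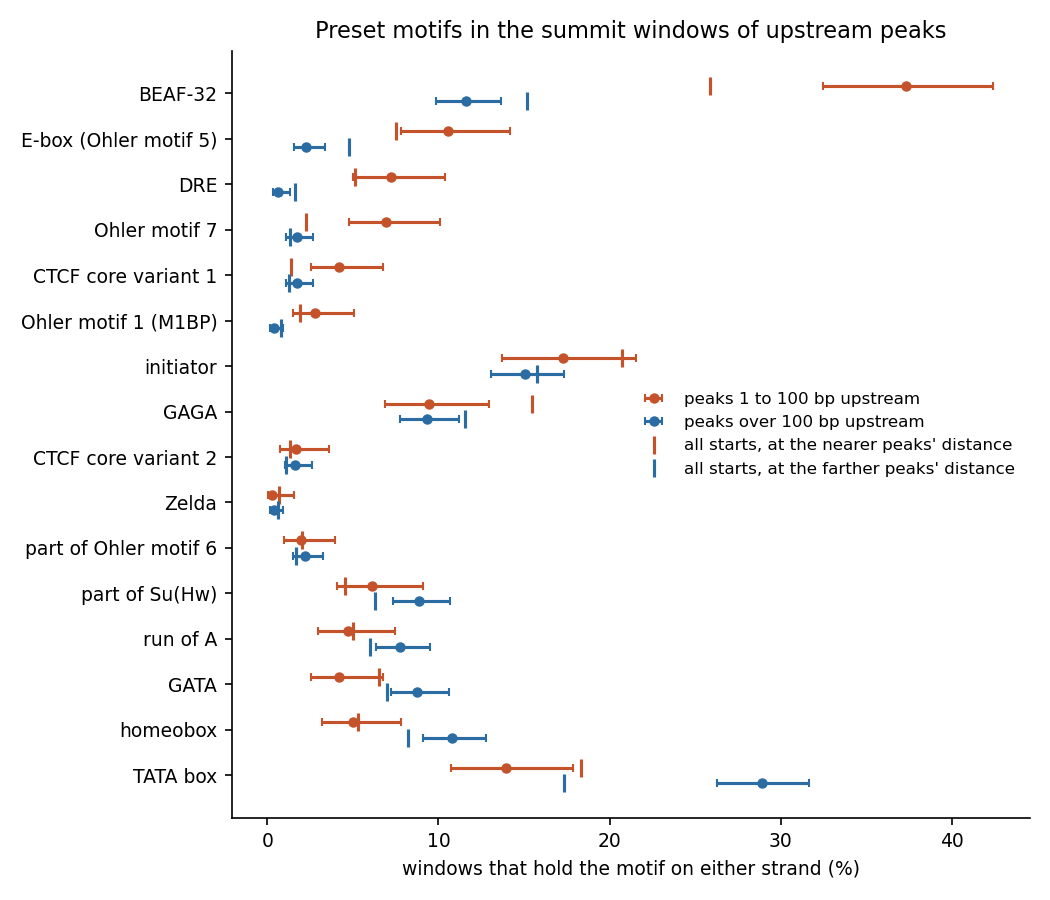
Share of nearer (upper, orange) and farther (lower, blue) upstream peaks whose 101 bp summit window holds each preset motif, with 95% Wilson intervals, and the share of windows at the same median distance from all protein-coding starts (ticks). The BEAF-32 word reaches 37.3% of nearer windows and the word TATAAA (named TATA box on the axis) 28.9% of farther windows, each above its tick; CTCF core variants 1 and 2 are AGATGGC and AGGTGGC.

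Nearer peaks also held GC-containing words that no preset motif named. Among all 7-letter words, chosen here for their ratio to all promoters after the values were seen, ACCAGGG was in 4.74% of nearer windows and 0.976% of windows 52 bp upstream of all starts. The replicates gave 3.96% and 4.28%. The peak at Cdk8, the kinase of the Mediator complex, is an example (129.2 in replicate 2, 132.0 in replicate 3). AGGGCTG, which overlaps it, was in 6.13% of nearer windows, with 7.32% and 6.15% in the replicates, against 1.72% of all promoters. For farther peaks the word with the highest ratio was CCTATTA, in 2.29% against 0.873% of windows 236 bp upstream of all starts.

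The 2 replicates did not rank the nearer peaks alike. The median log2 ratio of replicate 2 to replicate 3 was 0.13 for nearer and 0.31 for farther peaks, and it ran from 0.03 at 1 to 50 bp to 0.31 at 201 to 300 bp. Of the matched peaks, 137 of 347 nearer (39.5%) and 200 of 1050 farther ones (19.0%) were stronger in replicate 3, where 22.5% of all matched IDR peaks were. Downstream peaks went further, with 52.6%. Spearman's rho between the replicates' signal values was 0.68 over the nearer and 0.93 over the farther peaks. Nearer peaks are also the weaker ones, and the part of signal strength in this difference was not tested.

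A small set of strong peaks was higher in replicate 3. The CTCF core words AGATGGC or AGGTGGC were present in 54 upstream windows, 21 nearer and 33 farther. AGATGGC was in 4.18% of nearer and 1.74% of farther windows, against 1.38% and 1.25% of all promoters, and AGGTGGC in 1.67% and 1.65%, against 1.33% and 1.08%. The nearer share of AGATGGC was 4.57% in replicate 2 and 2.41% in replicate 3. Of the windows with either word, 28 of the 52 with a match in both replicates were stronger in replicate 3 (53.8%). Among upstream peaks without such a word it was 309 of 1345 (23.0%). Of farther peaks, 20 of 31 with a word (64.5%) and 180 of 1019 without (17.7%) were stronger in replicate 3. Of nearer peaks it was 8 of 21 with a word (38.1%) and 129 of 326 without (39.6%). Among the upstream peaks with a signal value of 877.3 or more the counts were 12 of 18 with a word and 12 of 345 without (3.48%). At Mtpalpha, a gene of mitochondrial fatty acid oxidation, replicate 3 gave the larger value (2711 in replicate 2, 4232 in replicate 3). Tpst had 2216 in replicate 2 and 3373 in replicate 3, and CG13689 had 769.0 and 1348. The words did not go with replicate 3 everywhere: the neuronal RNA-binding protein gene elav (1995 in replicate 2, 1601 in replicate 3) and the phosphodiesterase gene dnc (1040 and 713.5) hold one and were stronger in replicate 2. Without the peaks that hold these words, the log2 difference of nearer minus farther peaks on the IDR list was −0.78, against −0.79 with them.

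The 1453 peaks marked 1359 protein-coding genes, 9.75% of the 13945 in the annotation. Of the peaks, 991 lay at the most upstream annotated start of their gene, and 462 lay inside the gene itself, before an internal start. Among the latter were the peaks at px and ph-p and those given for CycE, numb, stumps, spi, sgg and gro. Intergenic positions with the neighbouring gene on the same strand accounted for 582 peaks, and 289 lay between genes that point away from each other with the other start more than 500 bp off. The remaining 120 were inside another gene, 68 on the opposite and 52 on the same strand. Peaks inside the same gene had the highest median signal value of these classes, 453.5, with 20.3% nearer peaks, and the tandem intergenic class had 365.0 with 30.1% nearer peaks. Exons held 141 summits. A start of a gene of biotype ncRNA was within 500 bp of 79 upstream summits (5.44%), against 3.46% of the other IDR peaks. The share was 4.53% of downstream peaks, 1.53% of divergent peaks and 4.62% of weaker upstream peaks outside the IDR list. By chromosome arm, the share of pooled upstream peaks on the IDR list ran from 31.7% on 2R to 40.1% on 2L, with 6 of 31 on chromosome 4 (19.4%, interval 9.19 to 36.3%). Of the genes, 111 carried 2 or more upstream peaks, 62 of them at 2 or more starts, and Ptpmeg2, dnc, Svil, Rtnl1 and RapGAP1 had 4 peaks each. At Rtnl1, a reticulon gene of the endoplasmic reticulum, these had pooled signal values of 3601, 1412, 1297 and 469.5.

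Genes of cytoplasmic ribosomal proteins and translation factors carried mostly nearer peaks. Of 92 cytoplasmic ribosomal protein genes, 23 had an upstream peak (25%, Wilson interval 17.3 to 34.7%, against 9.75% of all genes), and 18 of the 23 were nearer, where 352 of all 1359 marked genes were. Replicate 2 gave 27 genes and replicate 3 gave 23, and 10 were marked among the 3815 strongest IDR peaks. With starts within 200 bp the count was 34, and with starts within 1000 bp it was 18. An IDR peak of any class was counted at 73 of the 92 genes, and at 3520 of all 13945 genes. Most of the 73 thus had no upstream peak, and the high share was not particular to the upstream side. RpL23A reached 554.5 in replicate 2 and 467.6 in replicate 3, RpL30 had 380.1 and 461.2, and RpS10b had 309.0 and 405.0. RpL30 and RpS10b were thus stronger in replicate 3. Of 53 translation factor genes 10 had an upstream peak (18.9%, interval 10.6 to 31.4%), 7 of them nearer, among them eEF1gamma, a subunit of elongation factor 1 (587.6 in replicate 2, 564.4 in replicate 3), and eIF3c (317.6 and 265.5). eIF6, a factor of ribosome assembly (699.1 and 559.6), had a farther peak. Mitochondrial ribosomal protein genes were marked in 4 of 73 cases (5.48%, interval 2.15 to 13.3%), 1 of them by a nearer peak, and mRpL41 had the strongest.

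Genes of signalling pathways and cell fate were marked mostly by farther peaks, as were 1007 of all 1359 marked genes (74.1%). The Egfr and Ras pathway passes growth factor signals to the nucleus. Of its 22 listed genes, 7 had an upstream peak (31.8%, interval 16.4 to 52.7%), 6 of them farther. Of all genes, 9.75% had one. The feedback inhibitor aos had 1449 in replicate 2 and 1195 in replicate 3, and the ligand gene spi had 1171 and 880.7. Of 23 Notch pathway and Enhancer of split genes 6 had a peak (26.1%, interval 12.5 to 46.5%), all farther; the receptor gene N had 160.7 in replicate 2 and 115.9 in replicate 3, the ubiquitin ligase gene neur had 529.0 and 470.3, and the target gene E(spl)m7-HLH had 1948 and 1751. The receptor gene thus had the lowest of these values in each replicate. Wingless pathway genes were marked in 5 of 23 cases (21.7%), 4 of them farther, and the interval, 9.66 to 41.9%, includes the 9.75% of all genes. They included the kinase gene sgg, the corepressor gene gro and the inhibitor gene nkd (931.3 in replicate 2, 705.8 in replicate 3). An IDR peak of any class was counted at 10 of the 22 Egfr and Ras genes, 11 of the 23 Notch genes and 8 of the 23 Wingless genes. Of all 13945 genes, 3520 had one. With starts within 200 bp, which leaves out most farther peaks by construction, 4 Egfr and Ras genes and 2 Notch genes were marked, and among the 3815 strongest peaks 4 and 3 were.

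Regulators of tissues followed with small counts. Mesoderm regulators had an upstream peak in 5 of 24 cases (20.8%, interval 9.24 to 40.5%), all farther: stumps, an adaptor of fibroblast growth factor signalling, had 1466 in replicate 2 and 1303 in replicate 3, the heart factor gene tin had 1208 and 894.3, and the receptor gene htl had 517.3 and 404.7. Neurogenesis regulators had one in 6 of 28 cases (21.4%, interval 10.2 to 39.5%), 4 of them farther, among them numb, an inhibitor of Notch (1724 in replicate 2, 1408 in replicate 3), and the repressor gene scrt (908.5 and 453.7). Axis and segment patterning genes were marked in 6 of 38 cases (15.8%, interval 7.44 to 30.4%), led by bcd (209.0 in replicate 2, 171.7 in replicate 3). Ecdysone response factors had one in 4 of 18 cases, the receptor genes EcR and usp among them. With starts within 200 bp the counts were 0 mesoderm and 2 neurogenesis regulators, and among the 3815 strongest peaks 3 neurogenesis regulators and 1 patterning gene were marked. Each of the 3 intervals spans or nearly reaches the 9.75% of all genes.

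Cell cycle and heat shock genes were also marked. Cell cycle regulators had an upstream peak in 9 of 29 cases (31.0%, interval 17.3 to 49.2%, against 9.75% of all genes), 7 of them farther. The count was 6 in replicate 2 and 7 in replicate 3, 4 among the 3815 strongest peaks and 3 with starts within 200 bp. CycE, a cyclin of S phase entry, had 965.0 in replicate 2 and 848.5 in replicate 3, and E2f1, a transcription factor of the same step, had 293.1 and 228.0. Heat shock chaperone genes had one in 6 of 21 cases (28.6%), 5 of them farther. The small heat shock protein gene Hsp27 had 1915 in replicate 2 and 1414 in replicate 3, and Hsp83, which encodes the fly Hsp90, had a nearer peak with 583.0 and 604.8.

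Several other families had few or no marked genes on the upstream side, where 9.75% of all genes were marked. No gene of 179 chemosensory receptors had an upstream peak (Wilson upper bound 2.10%), nor did any of 16 Jonah proteases (upper bound 19.4%) or 8 subunits of the CCT chaperonin (upper bound 32.4%). An upstream peak was present at 1 of 70 cuticle protein genes, 2 of 85 cytochrome P450 genes and 1 of 40 genes of respiratory complex I (ND-20). The intervals of the Jonah proteases, the CCT subunits and complex I (0.443 to 12.9%) include the 9.75% of all genes. IDR peaks of any class were also few at chemosensory (0 of 179), Jonah (0 of 16), cuticle (1 of 70) and cytochrome P450 genes (4 of 85). They were counted at 5 of 8 CCT genes and 11 of 40 complex I genes. Among lists with shares near that of all genes were the proteasome (4 of 48), Mediator (MED4 and MED1 of 25), aminoacyl-tRNA synthetases (SerRS-m and AlaRS of 32), general transcription factors (TfIIA-S, Taf4 and TfIIEbeta of 23), coat and vesicle proteins (deltaCOP, Sec24CD and the exocyst gene Sec8 of 25), trithorax group genes (kis of 13), RNA polymerase II subunits (Polr2F of 13) and genes with Rab symbols (Rab5, Rab1 and the transferase subunits RabGGTa and RabGGTb of 36). Marked genes among glutathione S-transferases (GstT4 and GstD1 of 35), insulator proteins (BEAF-32 of 20) and DNA replication factors (geminin of 21) were few, and these lists are short. Of 18 Polycomb group genes 2 were marked, the neighbouring paralogs ph-p and ph-d. These paralogs are near-identical in part, and reads could be split between them.

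**Figure D5:**
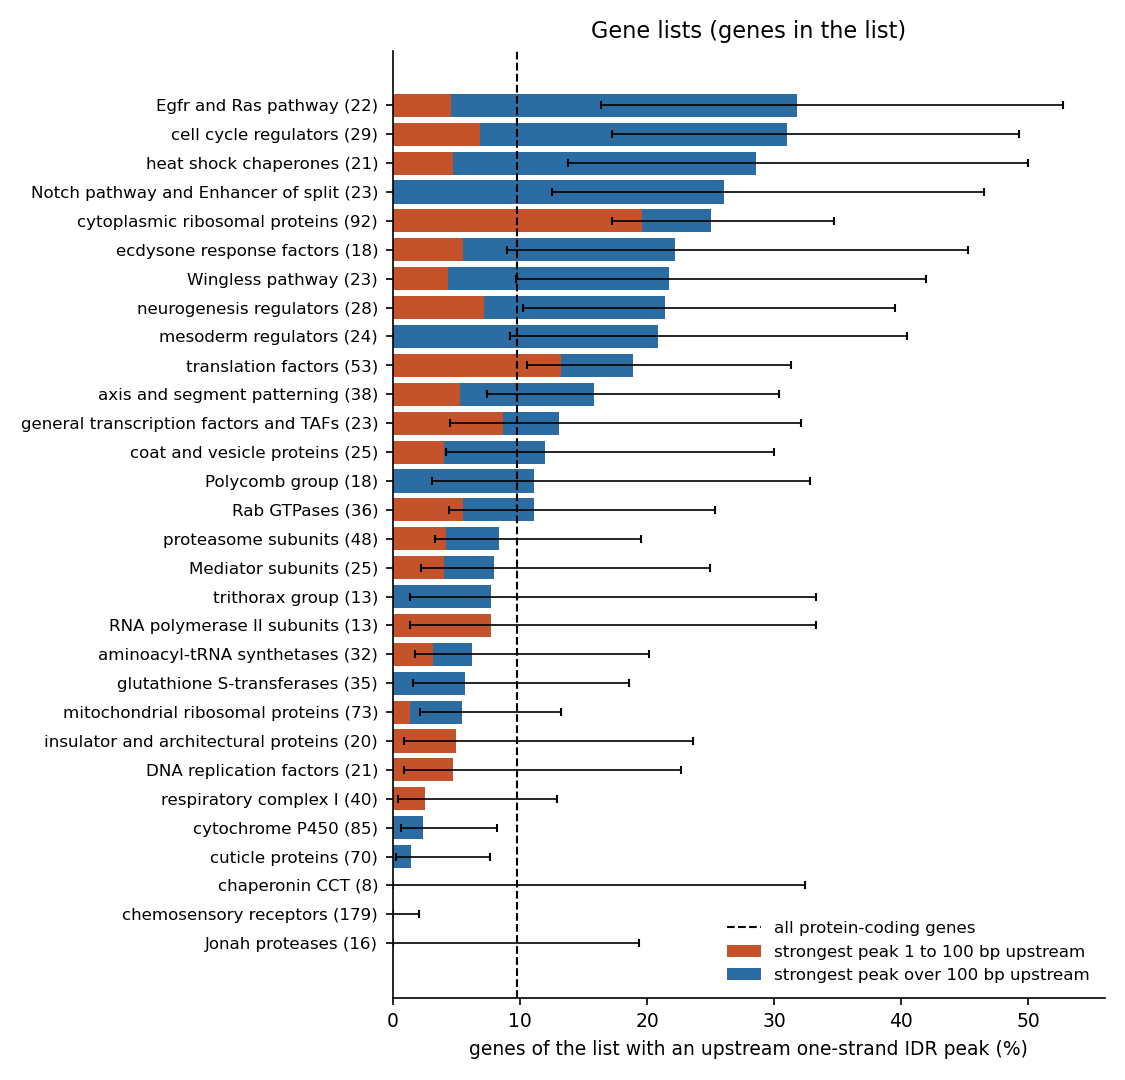
Share of the genes of each list with an upstream peak, divided by whether the strongest such peak was nearer (orange) or farther (blue), with 95% Wilson intervals for the whole bar and a dashed line at the 9.75% of all protein-coding genes. The bar of the cytoplasmic ribosomal proteins consists mostly of nearer peaks (18 of 23 genes), and those of the Notch pathway and of mesoderm regulators consist of farther peaks.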

How the data were processed

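The authors deposited 4 peak lists in narrowPeak form on build dm6, 1 for each replicate, 1 for the pool and 1 at their IDR threshold, all called against the same control, per the text files deposited beside them. The signal value is a score deposited by the authors, and the summit offset is theirs. The sources used here do not name the peak caller or the aligner. Depth is unknown.

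Gene starts came from Ensembl release 115 and sequence from RefSeq, both of the Release 6 assembly, and coordinates are counted from 1. Summits were assigned to starts within 500 bp. GC content and 22 motifs were read in the 101 bp around each summit, in windows 300 bp to either side and at all 19253 start positions. Gene lists, 30 in all, were drawn by symbol. Members, motifs and lists were chosen with earlier results of these data known. Named genes are those of the 20 strongest peaks, up to 3 per list by signal value, the strongest holder of a motif and peaks at the limits of the rule; others were named after their values were seen, to show a count. The position rule, the matching of summits and the motif search were tested on simulated data. Tools were scipy 1.17.1, matplotlib 3.10.9, pandas 2.3.3 and numpy 2.4.6 under Python 3.11.15.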

Additional observations from a re-analysis of the deposited data

How the results depend on the processing

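The settings tried were start windows of 200 and 1000 bp, each replicate alone, the 3815 strongest IDR peaks, 1 start per gene, and summit windows reaching 25 or 100 bp to either side. The number of upstream peaks was 743 and that of marked genes 721 among the 3815 strongest. The median distance was 110 bp with the 200 bp window, 243 bp with 1000 bp, 214 bp among the strongest and 166 bp with 1 start per gene. The share within 100 bp was 44.5%, 19.3% and 13.3% under the first 3 of these. The log2 signal difference from all other IDR peaks turned to −0.17 with the 200 bp window and −0.028 with 1 start per gene, was 0.030 with 1000 bp and 0.40 among the strongest, and was 0.08 without either replicate (0.0794 to 0.0824). That from downstream peaks was 0.43 with 200 bp and 0.33 with 1000 bp, and 0.53 to 0.60 without a replicate. GC at the summit was 29.7% among the strongest, 34.6% in the wider summit window and 34.4% with the 200 bp start window, and summit minus flanks was −14.3, −8.50 and −8.22 points there. The flank difference was −7.52 points among the strongest, −8.31 and −7.68 with narrower and wider summit windows, −9.97 and −5.89 with 200 and 1000 bp, and −8.25 to −7.96 without a replicate. Counterparts in both replicates were found for 83.6% within 50 bp, 99.0% by any overlap and 98.8% among the strongest. In settings added after seeing the data, the nearer minus farther log2 difference was −0.70 with the divide at 150 bp and −0.57 among the strongest, and the share of nearer peaks with a core promoter motif was 31.0% with the divide at 50 bp, 17.4% at 150 bp, 12.1% among the strongest, below the 15.3% of all starts, and 28.3% with 1 start per gene. Of 110 motif shares under single settings 85 moved by more than the SD of the replicates, and of 150 gene list counts 55 moved by over 1.5 times. The cause of these shifts was not tested. No paired analysis was possible because there is no second group; peak classes were compared within each replicate. Shares rest on the number of peaks, and weak peaks cannot be judged without depth.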
